A study of Oryza sativa with 8 samples.

Results

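Metallothioneins and proteins with a heavy-metal-associated (HMA) domain were described across rice roots and leaves. Members were the gene rows whose description held the word metallothionein, "heavy metal transport/detoxification" or "heavy metal-associated", in any case, and the metal pumps OsHMA2, OsHMA3, OsHMA4 and OsHMA5 were to be left out. The rule gave 67 of 46120 genes, 14 metallothioneins and 53 HMA-domain members, and it matched 0 of the pumps. HMA-domain members are so named from their description, and 39 of the 53 also had an InterPro entry for the domain. Os04g0468600 and Os02g0582600 were among those without one. RNA came from roots and leaves of the rice cultivar Tsukinohikari, grown in hydroponics with sufficient iron. In each tissue 1 library was from the non-transformant (NT) and 3 were from transformants that overexpress OsbZIP83, which encodes a bZIP transcription factor: 1 library each of line 13 (b83OX-13), line 15 (b83OX-15) and line 19 (b83OX-19). The study compared the lines with NT in each tissue, and the same libraries also set 4 roots against 4 leaves. The labels give neither plant age, nor the promoter of the transgene, nor whether a library was 1 plant or a pool, so p-values measure the spread between these libraries, which may be partly technical. NT was a single library per tissue.

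Metallothioneins are very short, cysteine-rich proteins whose thiols bind copper and zinc and also react with oxygen radicals. Plant metallothioneins fall into types by the spacing of their cysteines: type 1 is best known from roots, type 2 from shoots, type 3 from leaves and ripening fruit, and the EC type from seeds. The HMA domain is a small fold with a pair of cysteines that holds copper, zinc or cadmium. It occurs in copper chaperones of the ATX1 kind, which hand copper to membrane pumps, and in the large plant families of heavy-metal-associated plant proteins and isoprenylated plant proteins (HIPPs), which carry a lipid anchor near their end.

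The library method, Lasy-Seq, reads transcripts from their poly(A) end. Values were reads per 1000000 gene reads (RPM), summing to 1000000 over the 46120 genes of each library and not divided by transcript length, so an order of RPM values between genes is an order of reads. About 16951738 to 35706634 gene reads stood behind a library, and 1 read was worth 0.0280 to 0.0590 RPM. The summed level of 5 matched root markers (of 6 listed) was 6775 to 8794 RPM in roots and at most 5.36 RPM in leaves. That of all 7 leaf markers was 67174 to 82859 RPM in leaves, and 190.2, 0, 3.95 and 0 RPM in roots of NT and lines 13, 15 and 19. A limit applies to these marker sums and to every value of 0 below. About 0.134% to 0.146% of a gene's reads over all 8 libraries appears to have been deducted from each library before deposit, a step that no source used here describes. A gene abundant in one tissue can therefore be listed at 0 in the other while some reads were there, and no fold change is given against such a 0.

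Of the 67 members, 36 averaged 1 RPM or more in both tissues, 15 in roots alone, 3 in leaves alone and 13 in neither, and 11 stayed under 1 RPM in every library. All 4 root libraries lay above all 4 leaf libraries for 38 members, all leaves lay above all roots for 15, and the tissues overlapped for 14. The filter for tests, an average of 1 RPM or more across all 8 libraries, was passed by 54 members, 12 metallothioneins and 42 HMA-domain members. Among these 54, roots lay wholly above leaves in 33 (61.1%, background 55.4% of all genes tested) and leaves above roots in 14 (25.9%, background 22.8%). Of 14 metallothioneins 5 were listed at 0 in all leaves and 4 in all roots, against 5 and 0 of 53 HMA-domain members.

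In roots the metallothionein reads came mainly from 6 genes on chromosome 12, together 2.12% of gene reads in NT roots and 2.31% to 2.34% in roots of the lines. Their locus numbers, which run in chromosome order, fall in 2 runs, from Os12g0567800 to Os12g0568500 and from Os12g0570700 to Os12g0571100, and the last 3 are next to each other in the table. MTI4C (Os12g0571100), annotated as a metallothionein-like scavenger of reactive oxygen species, was at 13163, 13037, 13547 and 12858 RPM in roots of NT and lines 13, 15 and 19, and was listed at 0 in all leaves. Its rank by RPM among all genes was 1 in each of the 4 root libraries, and its SD over them was 292 RPM around a mean of 13151 RPM. MT1G (Os12g0571000), its neighbour and a type 1 gene, was at 2417, 3276, 2998 and 3339.7 RPM. MTI4B (Os12g0568200), also type 1, was at 1846, 2753, 2541 and 2865 RPM. In both of these genes NT was the lowest root library. MT1F (Os12g0567800), annotated as family 15 without a type, was at 1954, 1973, 1951 and 2058 RPM, and MT1Ld (Os12g0568500), type 1, at 973, 849.8, 1027 and 1043 RPM, with NT inside the range of the lines for both. All 4 of these genes were listed at 0 in every leaf library. MTI4A (Os12g0570700), similar to type 1, was the 1 gene of the 6 with reads in leaves: 892, 1511, 1024 and 1172 RPM in roots and 91.04, 91.3, 152 and 77.1 RPM in leaves. Such close copies can share reads, and how shared reads were divided is not given in the sources used here, so the level of a single copy is uncertain.

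Type 1 genes on chromosomes 3 and 11 were root-high as well. MTI1A (Os11g0704500) was at 6189.5, 5758, 6484 and 7519.7 RPM in roots and 221, 327, 473 and 416 RPM in leaves of NT and lines 13, 15 and 19. Its rank by RPM was 4 in roots of NT and lines 13 and 15 and 3 in line 19, and its lowest root value was far above its highest leaf value. MTI1B (Os03g0288000) was at 1144, 1073, 1223 and 1239 RPM in roots. In leaves it was listed at 0 except in line 15, where it was at 6.22 RPM. The estimated deduction for this gene in leaves, 4.31 to 6.89 RPM, was as large as that value, so the leaf libraries listed at 0 cannot be ordered. With deducted reads added back, leaves of line 15 were at 11.3 RPM. For the other leaves, listed at 0, the added-back values of 4.27 to 6.80 RPM are the estimated deduction itself. They are upper limits and not levels. The remaining type 1 entry, Os09g0244200, had no root value above 0 and at most 0.0878 RPM in leaves.

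**Figure D1:**
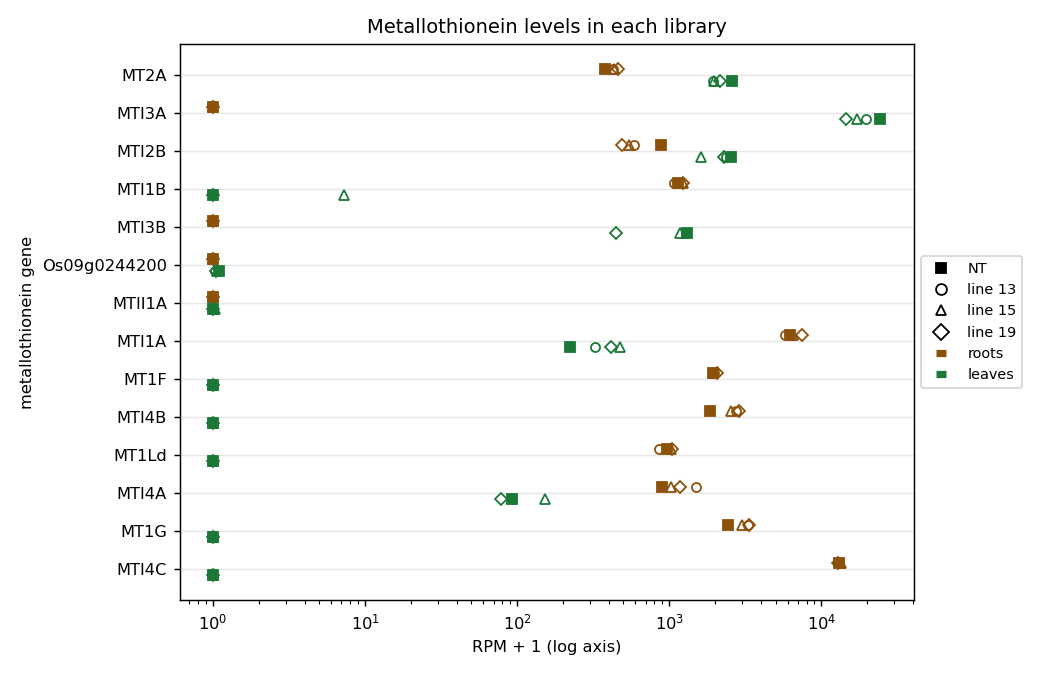
Levels of the 14 metallothioneins in each of the 8 libraries, as RPM + 1 on a log axis; filled squares are NT, open symbols the lines, brown roots and green leaves, and a point at 1 is a value listed at 0. Root and leaf values do not overlap for 13 of the 14 genes, with MTI4C near 13151 RPM in roots and MTI3A from 14550.0 to 24494 RPM in leaves. Of the 13, Os09g0244200 has at most 0.0878 RPM in leaves, so its points all lie close to 1.

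In leaves the class was carried by the type 3 genes. MTI3A (Os01g0200700) was at 24494, 19747, 17280.4 and 14550.0 RPM in leaves of NT and lines 13, 15 and 19, and was listed at 0 in all roots. Its rank by RPM was 3 in leaves of NT and lines 13 and 15 and 4 in line 19, and NT was the highest library. MTI3B (Os05g0202800), the other type 3 gene, was at 1316, 1287, 1175 and 444 RPM in leaves and listed at 0 in roots, with line 19 far below the other leaves. The type 2 genes were present in both tissues and higher in leaves. MT2A (Os01g0149800) was at 379, 425, 432 and 461 RPM in roots and 2594, 1931, 1957 and 2161 RPM in leaves. MTI2B (Os01g0974200), whose name places it in type 2, was at 885, 587, 539 and 486 RPM in roots and 2564, 2358, 1622 and 2291 RPM in leaves. For both genes the tissues did not overlap, while NT was the highest leaf library. The EC-type gene MTII1A (Os10g0542100) was listed at 0 in 7 libraries and at 0.0339 RPM, about 1 read, in leaves of line 15.

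As a share of gene reads the 14 metallothioneins made up 2.98%, 3.12%, 3.18% and 3.30% in roots of NT and lines 13, 15 and 19. In leaves the shares were 3.13%, 2.57%, 2.27% and 1.99% in the same order. The NT shares of the tissues were made up of different genes: type 3 gave 2.58% in NT leaves and the chromosome 12 genes 0.00910%. Type 2 gave 0.0947% to 0.126% in roots and 0.358% to 0.516% in leaves. The 53 HMA-domain members together gave 0.239% to 0.271% in roots and 0.0993% to 0.112% in leaves.

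**Figure D2:**
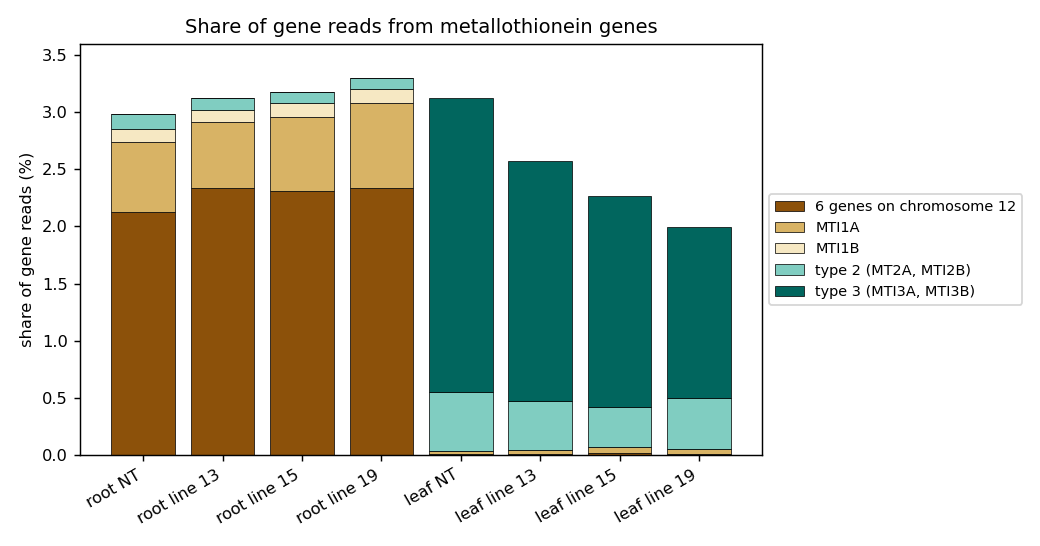
Share of gene reads from metallothionein genes in each library, as stacked bars in percent; colours separate the 6 genes on chromosome 12, MTI1A, MTI1B, type 2 and type 3. Root bars run from 2.98% to 3.30% and are mostly the chromosome 12 genes, and leaf bars run from 3.13% in NT to 1.99% in line 19 and are mostly type 3.

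With limma, 50 of the 54 tested members (92.6%) differed between roots and leaves, against 82.7% of all 21991 genes tested. Higher in roots were 36 members (66.7%, background 58.5%) and lower 14 (25.9%, background 24.2%). With a difference of at least 1 on the log2 scale as well, 29 members were higher in roots (53.7%, background 37.2%) and 11 lower (20.4%, background 16.3%). The median log2 difference was 1.67 over the members and 0.59 over all genes. Most genes passed here, so a call alone says little about a member. In bulk tissue fewer cells of a type and less RNA per cell cannot be told apart.

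All 12 tested metallothioneins passed, 8 higher in roots (background 58.5%) and 4 in leaves (background 24.2%). Where both tissues had reads, MTI1A was higher in roots by 4.22 ± 0.22 on the log2(RPM + 1) scale (SE, adjusted p = 6.06e-08), and MTI4A by 3.49 ± 0.22 (adjusted p = 2.89e-07). MT2A was lower in roots, with a difference of -2.34 ± 0.11 (adjusted p = 4.2e-08), and MTI2B likewise, with -1.84 ± 0.21 (adjusted p = 1.75e-05). The other 8 rest on values listed at 0 in one tissue, MTI1B with 1 exception, and their log2 differences have no fixed meaning. For MTI4C the estimated deduction in leaves was 48.05 to 76.9 RPM, against a lowest root value of 12858 RPM, and for MTI3A in roots 90.4 to 176 RPM, against a lowest leaf value of 14550.0 RPM. The 3 rice genes paired in the table with the Arabidopsis gene MT2A went both ways, since MT2A and MTI2B were leaf-high and MTI4A root-high.

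**Figure D3:**
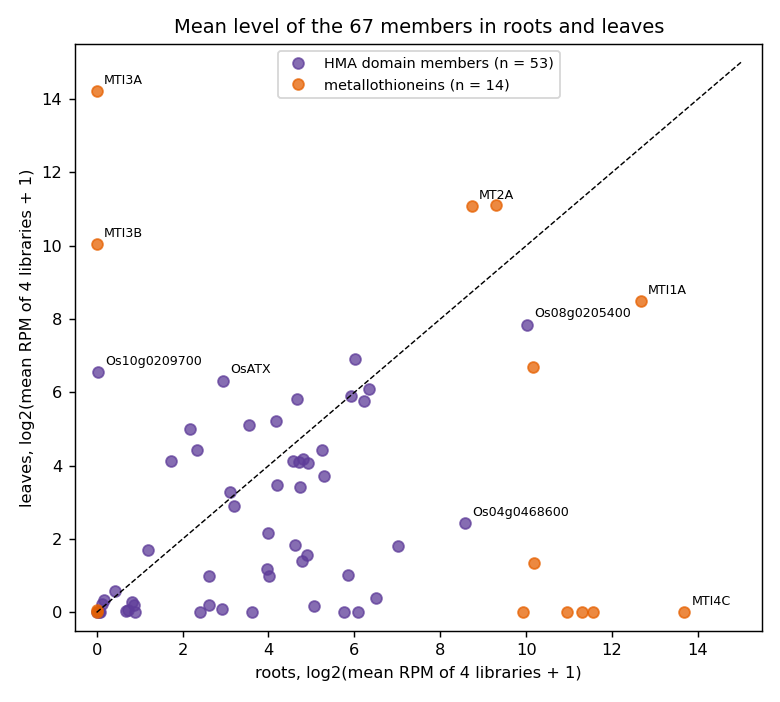
Mean level of the 67 members in 4 root libraries (horizontal) and 4 leaf libraries (vertical), as log2(mean RPM + 1), with metallothioneins in orange, HMA-domain members in purple and a dashed line of equal level. Of the metallothioneins, 7 lie on or next to an axis at its upper end, and 5 have reads in both tissues. HMA-domain members have lower means, with Os08g0205400 the highest of them at 1044 RPM in roots and 229 RPM in leaves.

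Among HMA-domain members, 38 of 42 tested differed between the tissues (background 82.7% of all genes). Higher in roots were 28 (background 58.5%) and higher in leaves 10 (background 24.2%). The member with the most reads was Os08g0205400 on chromosome 8, whose closest Arabidopsis gene in the table is ATX1, a copper chaperone that passes copper to P-type pumps. It was at 954, 1062, 1040.0 and 1119 RPM in roots and 206, 232, 248 and 232 RPM in leaves of NT and lines 13, 15 and 19, higher in roots by 2.18 ± 0.086 on the log2 scale (adjusted p = 9.87e-09). Its values varied little within a tissue, with means of 1044 ± 68.5 and 229 ± 17.5 RPM (SD, n = 4). The next entry on the chromosome, Os08g0205500, was at no more than 0.126 RPM. OsATX (Os01g0826000), whose own symbol is ATX, had the opposite tissue pattern, at 8.26, 4.92, 7.79 and 5.58 RPM in roots and 53.7, 96.9, 62.6 and 103 RPM in leaves (-3.36 ± 0.23, adjusted p = 5.31e-07).

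Among HMA-domain members the largest root-high differences were in genes with no name in the table. Os04g0468600 was at 292, 397, 423 and 421 RPM in roots and 1.54, 1.28, 14.1 and 0.824 RPM in leaves (6.74 ± 0.58, adjusted p = 2.57e-06). Its estimated deduction in leaves, 1.45 to 2.32 RPM, was as large as the 3 lower leaf values, and with deducted reads added back the log2 difference was 6.01. Line 15 was the highest leaf library, and its value was still far below every root. Os06g0542300 was at 53.6, 103, 105 and 99.1 RPM in roots and at most 0.852 RPM in leaves, and NT was the lowest root. Os01g0678800 and Os01g0249800 were listed at 0 in all leaves and were at 60.2 to 71.7 and 47.9 to 61.8 RPM in roots. Os02g0582600 was at 99.6, 124, 136 and 153 RPM in roots and 0.703, 2.07, 5.33 and 1.82 RPM in leaves, with the lines above NT in both tissues. Os01g0976300 had 49.5 to 64.5 RPM in roots and 0.800 to 1.26 RPM in leaves, and Os04g0400800 had 28.5 to 36.5 RPM in roots and no more than 0.442 RPM in leaves.

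Leaf-high HMA-domain members were fewer. Os10g0209700 was at 122, 93.9, 91.5 and 64.1 RPM in leaves of NT and lines 13, 15 and 19, and in roots it was listed at 0 except for 0.115 RPM in line 15. Its closest Arabidopsis gene is FP3, a farnesylated metal-binding protein. Os02g0510600, also closest to FP3, was at 1.83, 2.34, 2.85 and 2.34 RPM in roots and 25.2, 12.9, 13.2 and 14.8 RPM in leaves (-2.35 ± 0.21, adjusted p = 2.88e-06). The third gene of this group, Os04g0390100, was root-high instead, at 20.2, 15.1, 13.8 and 11.3 RPM in roots and 2.08, 0.732, 0.504 and 0.647 RPM in leaves (3.05 ± 0.25, adjusted p = 1.58e-06). Os03g0819400, closest to the Arabidopsis gene NAKR2 of the sodium potassium root defective family, had 2.89 to 4.31 RPM in roots and 23.1 to 41.02 RPM in leaves. Os04g0464100 had 3.39 to 4.66 RPM in roots and 11.6 to 32.8 RPM in leaves. Os01g0927300 had 8.59 to 13.9 and 24.8 to 40.6 RPM in the same order.

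Genes paired with one Arabidopsis gene did not always share a tissue. Of the 3 closest to HIPP27, a protein known in Arabidopsis from cyst nematode infection, Os01g0507700 and Os04g0244800 were leaf-high (-0.91 and -1.18 on the log2 scale, adjusted p = 2.53e-05 and 3.17e-05) and Os09g0364800 was root-high (1.62, adjusted p = 3.93e-06). Os11g0147500 and Os12g0144600, both closest to AT3G06130, were higher in roots by 2.82 and 2.82. All 3 genes closest to AT5G23760 and both closest to AT1G23000 were root-high, though the call of Os10g0506100, 1 of the former, was lost with TMM rescaling and with quantile normalization. Os04g0468600 lay next to Os04g0469000, which had 25.6 to 47.2 RPM in roots and 10.5 to 31.3 RPM in leaves. The tissues overlapped, and it passed as root-high (0.95, adjusted p = 0.0289), a call lost without line 13, without line 19, with TMM rescaling and with quantile normalization. On chromosome 2, Os02g0584700 and Os02g0584800 are next to each other, and the first was higher in roots (0.71) and the second in leaves (-0.97). The call of the first was lost without line 13, without line 19, with TMM rescaling and with quantile normalization.

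The 4 tested members that did not pass between the tissues were Os01g0933200, Os02g0585200, Os04g0667600 and Os09g0272000. Os04g0667600 was at 54.1 to 68.5 RPM in roots and 46.3 to 72.3 RPM in leaves, with a 95% interval of -0.28 to 0.34 for the log2 difference. Trimmed-mean (TMM) rescaling lowered the median difference of all genes from 0.59 to 0.04, and under it 29 members were higher in roots and 16 in leaves. Of all genes 79.8% passed under it in either direction. Of the small differences, those of Os03g0120400 and Os03g0345700 then changed sign without passing, and both also missed the threshold without line 13. Os04g0667600 passed as leaf-high under TMM rescaling and quantile normalization (-0.58 and -0.38). Each tested metallothionein kept its direction and its call under TMM rescaling and quantile normalization. Members under 1 RPM in every library included PI55-2 (Os08g0512200), named after resistance to the blast fungus, at no more than 0.0674 RPM.

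No tested member passed the test of lines against NT in roots. MTI3A and MTI3B, listed at 0 in all roots, could not have passed. With limma the count was 0 of 54, against 1.16% of all genes (0.655% higher and 0.509% lower), and 10 members (18.5%, background 13.5%) had an unadjusted p under 0.05. The median log2 difference was 0.0087 over the members and 0 over all genes. All 3 lines lay above NT for 17 members (31.5%, background 31.9%) and below it for 19 (35.2%, background 33.4%), and 0 of 46 members averaging 5 RPM or more in roots were 2-fold from NT in all 3 lines on the log2(RPM + 1) scale (background 0.607% higher and 0.333% lower). The gene with the most root reads, MTI4C, had a log2 difference of -0.0021 with a 95% interval of -0.22 to 0.21, and MT1F had 0.029 with -0.19 to 0.25. MTI1A had 0.081 with -0.47 to 0.64. Nearest to the threshold were Os04g0244800, closest to HIPP27, at 17.8 RPM in NT against 26.1, 26.4 and 26.9 RPM in lines 13, 15 and 19 (log2 difference 0.55 ± 0.10, adjusted p = 0.0654), and MTI4B, with 0.56 ± 0.11 (adjusted p = 0.0669). MT1G, with 0.41 ± 0.10, had an adjusted p of 0.156. In these 3 genes every line was above NT. MTI4C, MT1F, MTI4B and MT1G were listed at 0 in every leaf library. Leaf libraries entered the same fit and added no spread for them, so their SEs and intervals may be too narrow. Without a filter on low values MTI4B and Os04g0244800 passed, with Os03g0372600, which was under 1 RPM in every library.

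Other members with all 3 lines on one side of NT in roots lay above and below it. Os06g0542300 was at 53.6 RPM in NT against 103, 105 and 99.1 RPM in roots of lines 13, 15 and 19, with a log2 difference of 0.92 ± 0.27 (adjusted p = 0.205). Its lines lay close together above NT, and in a fit on the 4 root libraries alone, which leaves out the spread of its leaf values, the adjusted p was 0.0557. Os04g0468600 and Os02g0582600 had 0.50 and 0.46 (adjusted p = 0.89 and 0.683), and the first had an adjusted p of 0.165 in the fit on roots alone. On the lower side were MTI2B, with -0.72 ± 0.23 (adjusted p = 0.237), Os01g0719600 (-0.57), Os04g0390100 (-0.57), Os07g0682000 (-0.52) and Os01g0927300 (-0.48), with adjusted p from 0.217 to 0.462.

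**Figure D4:**
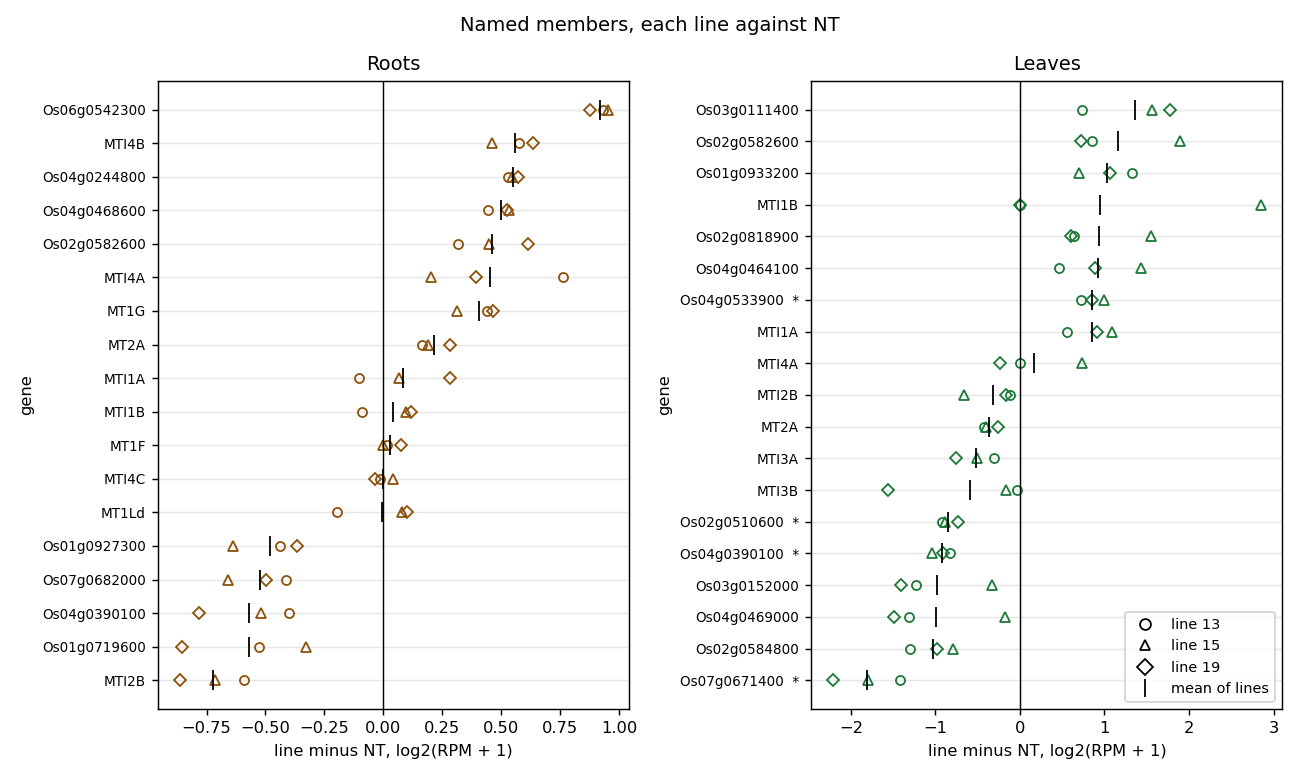
Differences of each line from NT on the log2(RPM + 1) scale for named members, in roots (left) and leaves (right); circles, triangles and diamonds are lines 13, 15 and 19, the bar is the mean of the lines, and an asterisk marks an adjusted p under 0.05. No root member carries an asterisk, and 4 leaf members do, from -1.81 for Os07g0671400 to 0.86 for Os04g0533900.

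In leaves 4 HMA-domain members and 0 metallothioneins passed the test of lines against NT. MTI4C, MT1G, MTI4B, MT1F, MT1Ld, Os01g0249800 and Os01g0678800 passed the filter through their root values and were listed at 0 in all leaves. Their leaf differences were fixed at 0, so they could not pass, though they count among the 54 tested members. With limma 4 of 54 members passed (7.41%), against 3.79% of all genes, 1 higher (1.85%, background 2.66%) and 3 lower (5.56%, background 1.13%), and 23 members (42.6%, background 21%) had an unadjusted p under 0.05. The median log2 difference was 0 over the members and 0.087 over all genes. All 3 lines lay above NT for 14 members (25.9%, background 42.2%) and below it for 21 (38.9%, background 20.6%). A 2-fold difference in all 3 lines was met by 0 of 29 members averaging 5 RPM or more in leaves (background 1.81% higher and 0.607% lower).

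Os07g0671400, closest to AT1G23000, fell from 5.36 RPM in NT leaves to 1.38, 0.825 and 0.371 RPM in lines 13, 15 and 19 (log2 difference -1.81 ± 0.28 (SE), adjusted p = 0.0187). In roots, where it was at 24.6 to 33.9 RPM, its difference was -0.31 (adjusted p = 0.7). Its partner by closest Arabidopsis gene, Os01g0125600, was at no more than 0.232 RPM in leaves. Of the FP3 group, Os02g0510600 fell from 25.2 RPM to 12.9, 13.2 and 14.8 RPM (log2 difference -0.85 ± 0.16 (SE), adjusted p = 0.0353). Os04g0390100 fell from 2.08 RPM to 0.732, 0.504 and 0.647 RPM (log2 difference -0.92 ± 0.19 (SE), adjusted p = 0.046). The group's most abundant leaf gene, Os10g0209700, was at 122 RPM in NT against 93.9, 91.5 and 64.1 RPM in the lines and did not pass (log2 difference -0.57 ± 0.23 (SE), adjusted p = 0.206). NT was the highest leaf library for all 3 genes. Os04g0533900, closest to AT5G23760, rose from 1.21 RPM to 2.65, 3.39 and 2.99 RPM (log2 difference 0.86 ± 0.17 (SE), adjusted p = 0.0402). Of its group, Os03g0111400 was at 4.85 RPM in NT against 8.71, 16.3 and 19.005 RPM (log2 difference 1.36 ± 0.38 (SE), adjusted p = 0.0977), and Os10g0506100 at 13.5 RPM in NT against 12.3, 19.3 and 17.8 RPM (log2 difference 0.25 ± 0.25 (SE), adjusted p = 0.645).

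**Figure D5:**
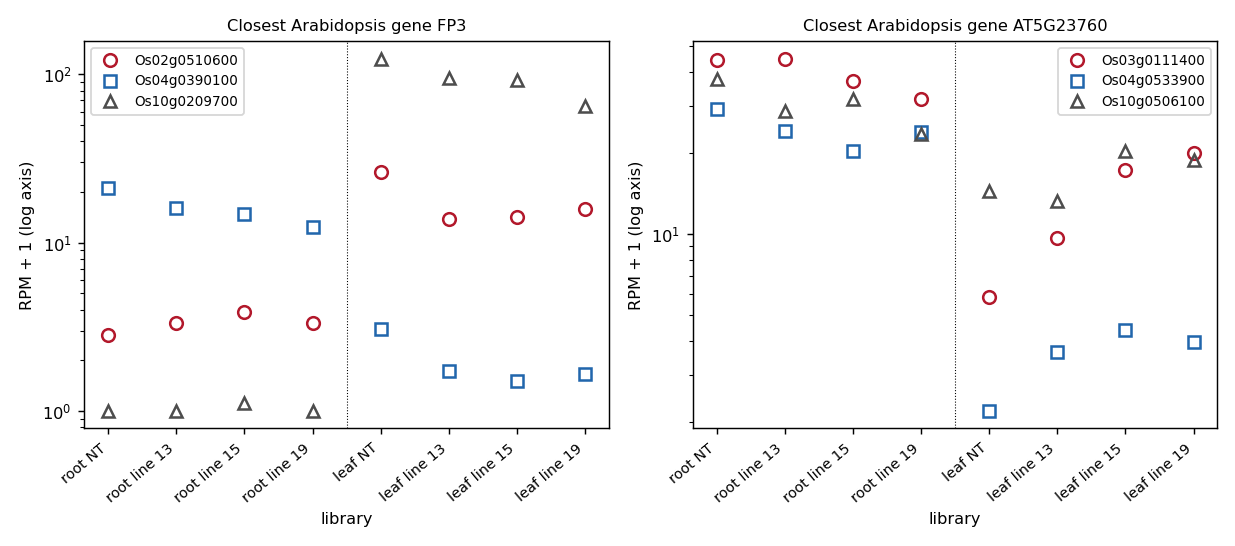
Levels in each library, as RPM + 1 on a log axis, of the 3 members closest to the Arabidopsis gene FP3 (left) and the 3 closest to AT5G23760 (right); the dotted line parts roots from leaves. In leaves NT is the highest library for each FP3 gene, as for Os02g0510600 at 25.2 RPM, and for Os03g0111400 and Os04g0533900 NT is the lowest.

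The 4 calls were lost in several other fits, with differences of similar size when a line was left out. Os07g0671400, Os04g0390100 and Os04g0533900 were near or under 5 RPM in leaves. Of 20 tested genes around each of the 4, 1 passed in leaves around Os07g0671400, 1 around Os02g0510600 and 0 around the other two. Without line 15 or without line 19 none of the 4 passed in limma, and without line 13 Os07g0671400 alone did. The share of all genes called in leaves fell too, from 3.79% to 0.959% without line 15 and 0.409% without line 19. Without line 13 that share was 3.65%. With each line left out the log2 difference ran from -2.01 to -1.61 for Os07g0671400, -0.90 to -0.81 for Os02g0510600, -0.97 to -0.87 for Os04g0390100 and 0.79 to 0.92 for Os04g0533900. None passed in a fit on the 4 leaf libraries alone (background 0.0728% of all genes) or without a filter (background 1.87%). Os02g0510600 was also lost with a pseudocount of 0.1 RPM (adjusted p = 0.0538), Os04g0390100 and Os04g0533900 with one of 5 RPM (-0.33 and 0.37, adjusted p = 0.191 and 0.141) and Os04g0533900 with quantile normalization (adjusted p = 0.0774). With TMM rescaling 7 members passed, 1 higher and 6 lower (background 3.86% in either direction). The added ones were Os01g0719600, Os02g0584800 and Os03g0345700.

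No leaf metallothionein passed the test, and those listed at 0 in all leaves could not have passed. MTI3A had a log2 difference of -0.52 ± 0.16 between lines and NT (adjusted p = 0.122), with all 3 lines below NT. It was listed at 0 in all roots, which added no spread to the fit, so this SE may be too small. MT2A, MTI2B and MTI3B were also below NT in all 3 lines (-0.37, -0.31 and -0.59, adjusted p = 0.175, 0.506 and 0.589). MTI1A went the other way, above NT in every line (0.85 ± 0.24, adjusted p = 0.0975). The summed leaf markers were at 82859 RPM in NT leaves and 79289, 78707 and 67174 RPM in leaves of lines 13, 15 and 19. Of the 7, OsRCA1 (2198 RPM in NT and 1153 to 1434 RPM in the lines), OsRBCS4 (4974 and 3642 to 3873 RPM), OsCAB2R (7771 and 5175 to 7111 RPM) and OsPORB (673 and 534 to 598 RPM) were below NT in all 3 lines, as MTI3A was. OsRBCS2, OsRBCS3 and OsCAB1R were above NT in 1 line each. The 5 matched markers of senescing leaf (of 6 listed) summed to 418 RPM in NT and 499 to 588 RPM in the lines. Most of that sum was OsNYC1, at 359 RPM in NT and 432 to 509 RPM in the lines, and OsSGR (4.01 RPM in NT and 6.24 to 17.8 RPM in the lines), OsPAO (20.6 and 27.02 to 35.05 RPM) and OsNAP (3.01 and 3.09 to 10.9 RPM) were likewise above NT in all 3 lines. OsNOL, at 32.2 RPM in NT and 27.4 to 29.98 RPM in the lines, was below it. The 3 matched markers of dividing cells (of 5 listed) summed to 24.8 RPM in NT and 22.2 to 29.5 RPM in the lines. Their part in the metallothionein levels was not tested.

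Other HMA-domain members with all 3 lines on one side of NT in leaves did not pass. Below NT were Os02g0584800 at 59.2 RPM in NT against 23.4, 33.6 and 29.5 RPM (-1.03, adjusted p = 0.0521) and its neighbour Os02g0584700, whose leaf values were 25.8, 12.04, 18.5 and 11.6 RPM in NT and lines 13, 15 and 19. Os04g0469000 and Os03g0152000 had -0.99 and -0.99 (adjusted p = 0.323 and 0.179), with line 15 close to NT in both. Above NT were Os01g0933200 at 3.16 RPM in NT against 9.403, 5.75 and 7.72 RPM (1.03, adjusted p = 0.068) and Os02g0582600 at 0.703 RPM in NT against 2.07, 5.33 and 1.82 RPM (1.16, adjusted p = 0.163). Os02g0818900 and Os04g0464100 had 0.93 and 0.92 (adjusted p = 0.218 and 0.163), and line 15 was the highest leaf library for both.

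The line effect in leaves minus that in roots passed for 0 of 54 members in limma, against 0.382% of all genes (0.259% higher and 0.123% lower), and 14 members (25.9%, background 15.2%) had an unadjusted p under 0.05. For the members called in leaves this difference was -1.50 ± 0.40 for Os07g0671400 (adjusted p = 0.166), -1.15 ± 0.23 for Os02g0510600 (0.0919), -0.36 ± 0.27 for Os04g0390100 (0.576) and 1.22 ± 0.24 for Os04g0533900 (0.0919). The leaf changes are therefore not shown to differ from those in roots.

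Related metal-binding genes were counted in the same fits, where 1.16% of all genes passed for lines against NT in roots and 3.79% in leaves. Of 8 genes annotated with phytochelatin or glutathione synthesis, which makes small thiol peptides that bind cadmium, 6 were tested, with 0 past the threshold in roots and 1 in leaves. Os03g0416300, Os07g0604300 and Os10g0497700 are annotated as similar to a phytochelatin synthetase. COBRA-like cell-wall proteins, which make no phytochelatin, also bear this label, so the list may hold genes outside this synthesis. The 1 called in leaves, Os07g0604300, rose from 3.76 RPM in NT leaves to 18.7, 12.9 and 18.5 RPM in lines 13, 15 and 19 (log2 difference 1.88 ± 0.29, adjusted p = 0.0177). OsPCS, a phytochelatin synthase, was at 12.3 and 14.1 ± 1.51 RPM (SD, n = 3). Of 9 genes of copper transport and chaperones 5 were tested, and 0 passed in roots or leaves. Of these 5, 3 were higher in roots than in leaves (background 58.5%), among them the copper importer COPT1, at means of 216 and 13.4 RPM. Of 12 genes annotated with superoxide dismutase, a class that in part holds copper and zinc, 10 were tested, and 0 passed in roots or leaves. Between the tissues 4 were higher in roots (background 58.5%) and 4 lower (background 24.2%). GLP1-1 and GER4, annotated as similar to a nectarin precursor, were among those higher in roots. GER4 was listed at 0 in all leaves, so it could not pass the test of lines against NT there. SIP17, annotated with BTB/POZ as well, was not tested.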

How the data were processed

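RNA levels were measured by Lasy-Seq in 8 rice libraries, 4 of roots and 4 of leaves. The authors deposited 1 table with a column per library, matched by name. Its values are RPM per the labels and were treated as a normalized signal: each of 3 classes of rows (46120 genes, 92 ERCC spike-ins and 10 ribosomal RNAs) summed to 1000000 per library. The submitters' processing notes name the build IRGSP-1.0, RSEM 1.2.21, Bowtie 1.2.3 and Trimmomatic 0.39, without saying in what role. No counts were in the table, so no count model was run. A value of 1 read was taken as the most frequent value above 0.

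Fits were made in R 4.3.3 with statmod 1.5.0 and limma 3.58.1, and summaries in Python 3.11.15 with pandas 2.3.3, numpy 2.4.6 and matplotlib 3.10.9. Genes averaging 1 RPM or more, 21991 in number, entered a limma fit on log2(RPM + 1) with a trend and 4 group means, which left 4 residual degrees of freedom. Two-sided p-values were adjusted over all of these genes by Benjamini-Hochberg, at a threshold of 0.05. Roots were set against leaves in a separate limma fit with 1 mean per tissue, as 4 libraries against 4. Differences between NT and the lines entered its residual spread. The lone NT library was assumed to vary like the lines. In the fit with 4 group means, a gene at 0 throughout a tissue has no spread there. Its SE in the other tissue may then be too small. On the log2(RPM + 1) scale differences of low genes are understated. Named members were every metallothionein, every called member, the 10 largest differences between the tissues in each direction without overlap, the 10 with the most reads per tissue and the 5 largest line differences per direction and tissue with all lines on 1 side; members that share an Arabidopsis gene or a neighbour with these, and those under the filter, were chosen after their values were seen. The members and lists were chosen with earlier results of these data known. Fits were tested on simulated data. Alternatives were pseudocounts of 0.1 and 5 RPM, no filter or one at 5 RPM, TMM rescaling (trimming 30% and 5%), quantile normalization, deducted reads added back, each tissue alone, no trend and the line as a block. Each line was also left out of both tissues at once, and so was NT for roots against leaves.

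The labels pair the root and the leaf library of each line. Deviations from the group means correlated at 0.163, -0.0324 and 0.126 for lines 13, 15 and 19 over 12384 genes. Libraries of a tissue correlated at 0.974 to 0.994 in roots and 0.965 to 0.986 in leaves, and each counted as 1 sample. Chromosomes were read from the locus numbers. Coordinates and sequences were not used here.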

Additional observations from a re-analysis of the deposited data

How the results depend on the processing

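The count of members that differed between roots and leaves, 50, was 45 to 51 when each line, or NT, was left out of both tissues at once. In roots the count of members past the threshold for lines against NT was 0, and it was 2 with a pseudocount of 5 RPM (Os06g0542300 and MTI4B), 3 without a filter, and 1 (Os04g0244800) with TMM rescaling and with quantile normalization; with each line left out it stayed at 0. In leaves the count was 4 (background 3.79%). It was 0 without a filter (background 1.87%), 0 in the tissue alone (background 0.0728%) and 7 with TMM rescaling (background 3.86%). When each line was left out it ranged from 0 to 2, and the background from 0.409% to 3.65%. The replicate block, with the line as the pair, gave 0, 4 and 50 in the 3 comparisons, and changed no member's call.

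Signs of lines against NT and of the difference of effects changed in values that did not pass. Between the tissues, TMM rescaling changed the sign of Os03g0120400 and Os03g0345700, whose calls were lost, of Os04g0667600, whose call was gained, and of Os01g0933200 and Os09g0272000, which passed in neither fit. The log2 difference of MTI4C between lines and NT in roots was 0.013 with TMM rescaling and 0.0021 with deducted reads added back, that of MT1Ld 0.0096 with TMM rescaling and 0.011 with quantile normalization, and that of MT1F -0.0057 with quantile normalization. With each line left out, these differences ran in roots from -0.019 to 0.17 for MTI1A, -0.059 to 0.089 for MT1Ld and -0.024 to 0.014 for MTI4C, and in leaves from -0.12 to 0.37 for MTI4A. The difference of effects for Os04g0390100 was 0.13 with a pseudocount of 5 RPM. The cause of these moves was not tested. NT had 1 library per tissue, so the spread between NT plants is unknown, and the deduction limits what low values show.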

Other observations

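Some root-high HMA-domain members had their highest leaf value in line 15. Among 26 members of both classes with roots wholly above leaves, line 15 was the highest leaf library for 12 (46.2%, background 25.3%). NT was the highest for 9 (34.6%, background 19.0%), line 13 for 4 (15.4%, background 17.7%) and line 19 for 1 (3.85%, background 38.1%). Members listed at 0 in all leaves are not among the 26. Os04g0468600 was at 14.1 RPM in leaves of line 15 and 0.824 to 1.54 RPM in the other leaves, and with deducted reads added back at 15.7 and 2.71 to 3.82 RPM. Os02g0582600 was at 5.33 RPM, with 0.703 to 2.07 RPM elsewhere, and with deducted reads added back at 5.87 and 1.47 to 2.54 RPM. The summed root markers, as deposited, were at 4.87 RPM in leaves of line 15 and 0.294 to 5.36 RPM in the other leaves. The deduction applies to them too, and OsLsi2 and OsRCc3 were listed at 0 in every leaf library. These sums therefore cannot show which leaf library held more reads of root markers. Os04g0468600 and Os02g0582600 were chosen after their values were seen, with no test.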
